A study of Mus musculus with 24 samples.

Results

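Testes of mice kept for 485 days at a high dose rate of γ-rays, 13 μGy/min, were compared with testes of mice kept for the same time at a mid dose rate, 0.65 μGy/min. The 6 arrays compared, 3 per group, were chosen by their labelled dose rate alone, and they are 6 of the 24 arrays of a study of kidney and testis. The high group comprised arrays H132, H134 and H139, from mice with a total dose of 8000 mGy. The mid group comprised arrays M125, M129 and M130, from mice with a total dose of 420 mGy. Both groups were irradiated from a caesium source for 22 h per day, and the organs were removed as soon as irradiation ended. The labels give no strain or age and name no mutation or transgene. The other testis groups were a low dose rate of 0.032 μGy/min (21 mGy) and unirradiated controls, again with 3 arrays each, and kidney had the same 4 groups. Dose rate and total dose moved together between the groups, so their parts in any difference cannot be told apart.

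The testis holds germ cells that pass from spermatogonia through meiosis to spermatids, Sertoli cells that nurse them inside the tubules, and Leydig cells between the tubules that make testosterone. Dividing spermatogonia are among the most radiation-sensitive cells of the body, whereas Sertoli and Leydig cells are known to withstand far more. Ionising radiation breaks DNA, and in many tissues p53 then raises transcripts of cell cycle arrest and apoptosis genes such as Cdkn1a.

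Signals are intensities of an Illumina Mouse-6 bead array, on which each probe reports 1 transcript, after quantile normalization over the 12 testis arrays. A noise limit was taken for each array as percentile 99 of its values below 0 mirrored around 0, and a probe was tested if it was above this limit on at least 3 of the 6 arrays. That left 13808 of 46133 probes, of which 3957 could be given a gene symbol (3619 symbols). The tissue label held against its markers. All 12 spermatid genes found on the array were brighter in unirradiated testis than in unirradiated kidney, by a median of 8.91 on the log2 scale, as were all 4 Leydig cell genes tested (median 5.39) and 3 of 4 Sertoli cell genes (median 4.47).

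The high arrays stood somewhat apart from the mid arrays in noise and on the first principal component. Their noise limits were 110.4, 126.7 and 133.6 intensity units, against 102.4, 105.5 and 98.6 on the mid arrays. Probes above the limit numbered 13800, 12891 and 12566 on the high arrays, against 14392, 14083 and 14686 on the mid arrays. Neither measure overlapped between the groups, and each gave an exact two-sided permutation p = 0.1, the smallest that 20 splits of 6 arrays allow. Control array C102 lay close to high array H132, with a noise limit of 109.4 and 13486 probes above it. Arrays correlated at r = 0.960 to 0.966 within the high group and at 0.969 to 0.973 within the mid group. Between high and mid arrays r was 0.954 to 0.973, so some high arrays correlated with mid arrays as closely as with each other. On the first principal component of the testis arrays, which held 17.1% of the variance, arrays H139, H134 and H132 lay at 46.0, 25.4 and 6.6, against −4.4 to −2.2 for the mid arrays. With 3 arrays a group the number of arrays limits how precise any value is, and the part of the higher noise in the differences of dim probes was not tested.

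No probe (0 of 13808, 0% called) passed limma with a Benjamini-Hochberg adjusted p under 0.05 between the high and mid dose rates. The smallest adjusted p was 0.0844. At an unadjusted p under 0.05 there were 1674 probes (12.1%), 782 of them higher at the high dose rate (5.66%) and 892 lower (6.46%). The arrays of the groups did not overlap for 2194 probes (15.9%), with the high arrays above for 1095 (7.93%) and below for 1099 (7.96%). The differences were centred close to 0, with a median of −0.0059 on the log2 scale and 48.9% of probes higher at the high dose rate. Quantile normalization gives every array the same distribution of signals, so such centring cannot show whether signal moved as a whole. Among the 10567 probes above the noise limit on all 6 arrays, 3 differed by more than 1 on the log2 scale, all with higher signal at the high dose rate. Counts of calls moved with the statistical model and with 1 array: limma with a trended and robust variance called 32 probes (26 higher, 6 lower), and leaving out high array H132 gave 54 (7 higher, 47 lower), of which 9 were shared. The typical error shrank with brightness, with a median standard error of 0.37 among the dimmest 3452 probes and 0.10 among the brightest 3452.

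**Figure D1:**
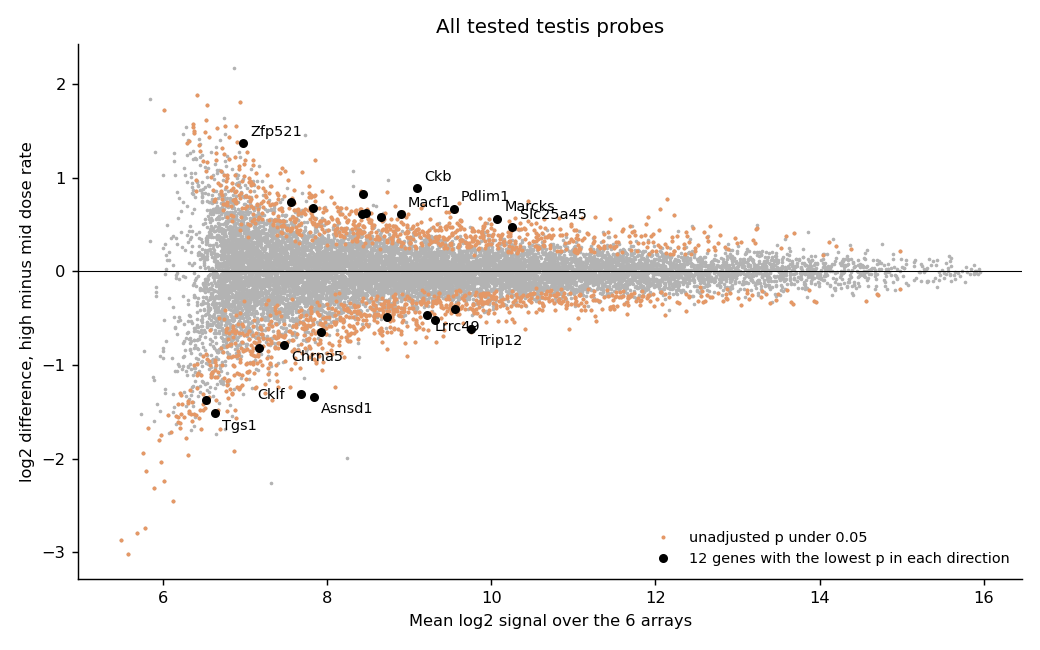
Log2 difference, high minus mid dose rate (vertical axis), against the mean log2 signal over the 6 arrays (horizontal axis) for the 13808 tested testis probes. Orange points have an unadjusted p under 0.05 and black points are the 12 genes of lowest p in each direction. After quantile normalization, which favours such centring, the cloud is centred on 0. It narrows with brightness, and no probe passed the adjusted threshold.

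Since none passed, the genes below are described by their values and not as changed. They are the 12 of lowest p in each direction among probes with a symbol, limited to probes above the noise limit on all 3 arrays of at least 1 of the groups. For all 24 the arrays of the groups did not overlap, as for 15.9% of all tested probes, but choosing by low p favours this. Their limma adjusted p lay between 0.139 and 0.216. Some probes passed the filter through 1 group alone. Of all tested probes, 165 were above the noise limit on 3 mid and 0 high arrays, and 19 on 3 high and 0 mid arrays. Genes picked for low p tend to overstate the size of a difference. RNA came from whole organs, so fewer cells of a type and less RNA per cell cannot be told apart for any of them. All errors beside a log2 difference are limma standard errors with n = 3 per group.

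Macf1, Pdlim1 and Marcks were among the 12 genes with higher signal at the high dose rate. Macf1, a spectraplakin that links actin to microtubules, measured 601, 520.1 and 660.4 intensity units on the high arrays, against 411, 360 and 390.1 on the mid arrays (log2 difference +0.61 ± 0.11, limma adjusted p = 0.139). Its lowest high array was well above its highest mid array. Pdlim1, an adaptor that binds α-actinin, measured 904, 974 and 943 at the high dose rate, against 507, 673 and 606 at the mid dose rate (+0.67 ± 0.12, limma adjusted p = 0.145). The high arrays of Pdlim1 were close together, and the mid arrays spread more widely below them. Marcks, an actin-binding substrate of protein kinase C, measured 1222, 1486 and 1241 at the high dose rate, against 831, 906 and 928 at the mid dose rate (+0.56 ± 0.12, limma adjusted p = 0.21). High array H134 was the brightest for Marcks, and every high array was above every mid array. With a trended and robust variance, Pdlim1 and Marcks were called, with adjusted p = 0.0250 and 0.0452.

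Ckb, Slc25a45 and Camkk2 were also among the 12. Ckb, the brain-type creatine kinase that buffers ATP, measured 658, 712 and 887 at the high dose rate, against 481, 346 and 396 at the mid dose rate (+0.88 ± 0.15, limma adjusted p = 0.139; 0.0188 with a trended and robust variance). The mid arrays of Ckb spread as widely as the high arrays, without reaching them. Slc25a45, a member of the mitochondrial carrier family, measured 1394, 1567 and 1385 at the high dose rate, against 1032, 1101 and 986 at the mid dose rate (+0.48 ± 0.08, limma adjusted p = 0.139; 0.0452 with a trended and robust variance). It had the smallest difference of the 12 and, with Macf1 and Ckb, the lowest adjusted p. Camkk2, a kinase upstream of AMPK, measured 444, 553 and 497 at the high dose rate, against 305, 331 and 361 at the mid dose rate (+0.58 ± 0.13, limma adjusted p = 0.214). Its lowest high array lay above all 3 mid arrays.

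The other genes with higher signal were Flrt1, Kcnk13, Nedd4l, Tbl1x, 6430548M08Rik and Zfp521. Flrt1, a leucine-rich repeat membrane protein, measured 229.8, 237 and 267 at the high dose rate, against 145, 166 and 129.2 at the mid dose rate (+0.74 ± 0.15, limma adjusted p = 0.176). Kcnk13, a tandem pore domain potassium channel, measured 406, 455 and 419.9 at the high dose rate, against 249.8, 338 and 260.2 at the mid dose rate (+0.61 ± 0.12, limma adjusted p = 0.176). Both probes are dim, and mid array M129 was the nearest to the high arrays in each. Nedd4l, a ubiquitin ligase that removes membrane proteins such as the epithelial sodium channel, measured 252, 312 and 304 at the high dose rate, against 198, 147 and 204 at the mid dose rate (+0.67 ± 0.15, limma adjusted p = 0.214). Tbl1x, a subunit of the NCoR corepressor complex, measured 469, 400.3 and 456 at the high dose rate, against 329.7, 235 and 302 at the mid dose rate (+0.62 ± 0.13, limma adjusted p = 0.214). In Nedd4l and Tbl1x 1 mid array was clearly lower than the other two. 6430548M08Rik, named only by its clone, measured 439, 486 and 463 at the high dose rate, against 229, 268 and 287 at the mid dose rate (+0.83 ± 0.17, limma adjusted p = 0.176). Zfp521, a zinc-finger transcription factor, measured 216, 162 and 238 at the high dose rate and was not above the noise limit on any mid array (81.4, 92.9 and 64.5), so it was at least 2.00-fold higher (limma adjusted p = 0.165). Such a lower limit divides the mean on the brighter arrays by the dimmest signal that still passed the noise limit on the others, and it has no error of its own.

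The 12 genes with lower signal at the high dose rate included dim probes, and 5 of them were not above the noise limit on every high array. Asnsd1, which encodes an asparagine synthetase domain protein, measured 215, 119.8 and 116 at the high dose rate (1 of 3 above the noise limit), against 333, 412 and 353 at the mid dose rate (−1.34 ± 0.25, limma adjusted p = 0.152). High arrays H134 and H139 were well under array H132, and the other Asnsd1 probe differed by −0.24. Cklf, a chemokine-like factor, measured 129.9, 164 and 104 at the high dose rate (2 of 3 above the noise limit), against 308, 292 and 374 at the mid dose rate (−1.31 ± 0.24, limma adjusted p = 0.152). The groups were far apart on this probe, while the other Cklf probe differed by −0.13. With a trended and robust variance both were called, each with adjusted p = 0.0250. Chrna5, a subunit of nicotinic acetylcholine receptors, measured 137, 137 and 133 at the high dose rate, against 229.9, 220.1 and 254 at the mid dose rate (−0.79 ± 0.14, limma adjusted p = 0.145). Its high arrays were nearly identical.

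Trip12, Nupl1, Lrrc49 and 4930519H02Rik were the brightest genes on the lower side. Trip12, a ubiquitin ligase, measured 900, 605 and 622 at the high dose rate, against 1114, 1001 and 1087 at the mid dose rate (−0.61 ± 0.14, limma adjusted p = 0.216). High array H132 was nearest to the mid arrays, and without it the difference was −0.80 and was called (adjusted p = 0.0221). The 2 other Trip12 probes differed by −0.23 and −0.26. Nupl1, a nucleoporin of the central channel of the nuclear pore, measured 708, 639 and 632 at the high dose rate, against 845, 820.2 and 949 at the mid dose rate (−0.40 ± 0.09, limma adjusted p = 0.216). Its other probe differed by −0.17. Lrrc49, a leucine-rich repeat protein, measured 499.5, 544 and 483 at the high dose rate, against 674, 720.5 and 708 at the mid dose rate (−0.46 ± 0.10, limma adjusted p = 0.214). The high and mid arrays of Nupl1 and Lrrc49 each kept within a narrow range. 4930519H02Rik, a gene known by its clone name, measured 612, 501 and 494 at the high dose rate, against 708, 803 and 778 at the mid dose rate (−0.51 ± 0.11, limma adjusted p = 0.214).

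The remaining genes on the lower side were dimmer. Fam131a measured 368, 365 and 347 at the high dose rate, against 439, 573 and 513 at the mid dose rate (−0.49 ± 0.11, limma adjusted p = 0.216). Szrd1 measured 209, 209 and 167 at the high dose rate, against 335, 298 and 281 at the mid dose rate (−0.65 ± 0.15, limma adjusted p = 0.216). In both genes the highest high array was clearly below the lowest mid array. AW554918, known by its clone accession, measured 120, 118.7 and 91.2 at the high dose rate (1 of 3 above the noise limit), against 196, 183 and 198 at the mid dose rate (−0.81 ± 0.14, limma adjusted p = 0.145). Tgs1, which hypermethylates the caps of small nuclear RNAs, was not above the noise limit on the high arrays (59.1, 43.6 and 78.3) and measured 133, 164 and 217 at the mid dose rate, at least 1.39-fold lower (limma adjusted p = 0.214). Its other probe went the other way, at +0.47. Gpn3, a GTPase linked to the nuclear import of RNA polymerase II, was likewise not above the limit on the high arrays (90.0, 33.4 and 62.1), against 136, 176 and 136 at the mid dose rate, at least 1.23-fold lower (limma adjusted p = 0.214).

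**Figure D2:**
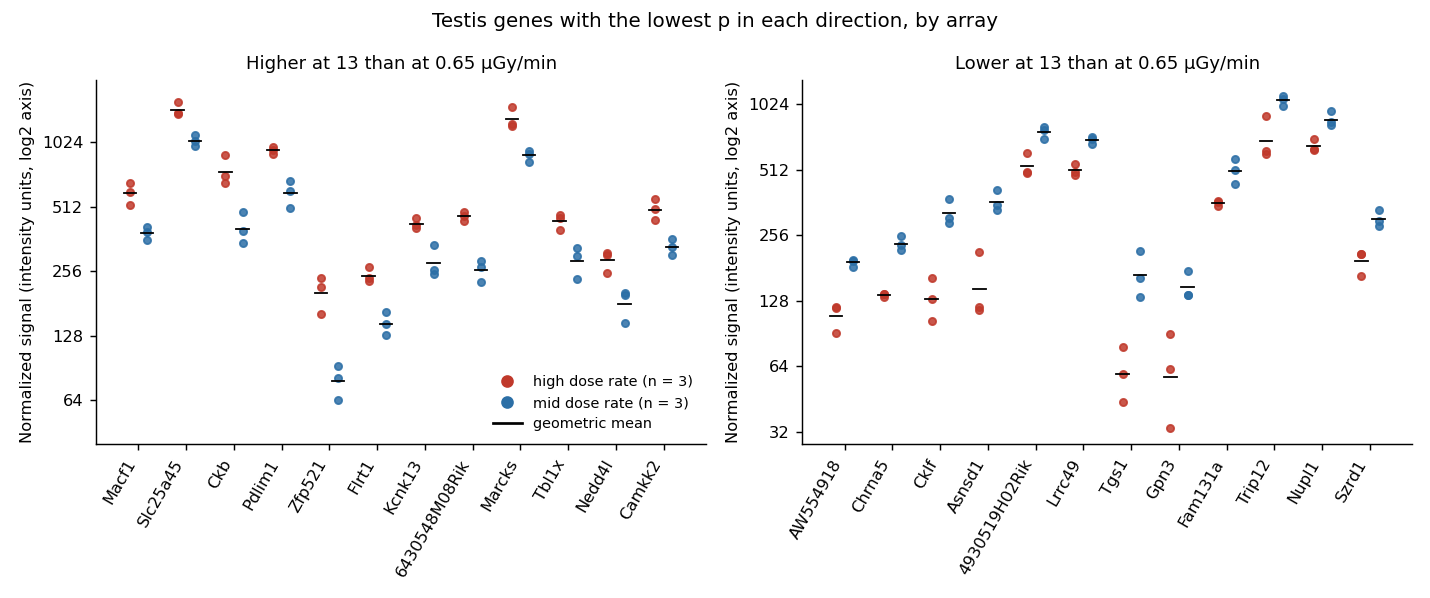
Normalized signal in intensity units (vertical log2 axis) of the 12 genes of lowest p with higher signal at the high dose rate (left) and the 12 with lower signal (right). Red points are the 3 high arrays, blue points the 3 mid arrays and bars geometric means. No gene's groups overlap, and Zfp521, Tgs1 and Gpn3 have 1 group under the noise limit on every array.

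The probes of lowest p on the whole array carried no gene symbol. Probe 540093 measured 1609.8, 2009.5 and 1833 at the high dose rate, against 1078, 1091 and 1047 at the mid dose rate (+0.76 ± 0.09, limma adjusted p = 0.0844). Probe 104810068 measured 873, 968 and 1022 at the high dose rate, against 574, 611 and 642 at the mid dose rate (+0.65 ± 0.09, limma adjusted p = 0.0966). Both were bright, with the groups far apart. Probe 3130064 was not above the noise limit on the high arrays, with a mean log2 signal of 4.74 ± 0.65, against 7.06 ± 0.22 at the mid dose rate (SD, n = 3 each), and was at least 1.10-fold lower (limma adjusted p = 0.0844). Probe 580673 was not above it on the high arrays either (100.1, 92.1 and 80.7), against 217, 204 and 156 at the mid dose rate, at least 1.58-fold lower (limma adjusted p = 0.0966). Probe 104010156 was the reverse, at 172, 180.4 and 148 on the high arrays and not above the limit on the mid arrays (65.4, 55.2 and 82.2), at least 1.64-fold higher (limma adjusted p = 0.0966). Under the alternatives, probe 540093 was called in 5 of 19 and probe 3130064 in 8 of 15, with lowest adjusted p = 0.000946 and 0.0112. Probe 104810068 was called in 3 of 19, probe 580673 in 1 of 15 and probe 104010156 in 1 of 14.

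Among probes with a gene symbol and above the noise limit on all 6 arrays, 5 had the largest differences, and 4 of these had limma adjusted p from 0.282 to 0.426, the fifth being Ckb. Eif2s3y, the Y-linked gene of a translation initiation factor subunit that spermatogonia need, measured 387, 143 and 266 at the high dose rate, against 416, 412 and 579.6 at the mid dose rate (−0.92 ± 0.43). Its signal was also spread over 196, 253 and 362 on the control arrays. Bcas2, a spliceosome component, measured 238, 189.6 and 166 at the high dose rate, against 401, 406 and 291 at the mid dose rate (−0.89 ± 0.30). Pa2g4, a growth-regulating RNA-binding protein, measured 209.6, 183 and 175 at the high dose rate, against 318, 275 and 474 at the mid dose rate (−0.88 ± 0.28). The mid arrays of Pa2g4 varied more than its high arrays. Snrpb, a core protein of spliceosomal small nuclear ribonucleoproteins, measured 237, 286 and 267 at the high dose rate, against 126, 179.9 and 131 at the mid dose rate (+0.87 ± 0.27), while its other probe differed by +0.10.

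Where the control arrays lay differed between genes. Among the 12 genes on the higher side, the high mean was above control in 12 and the mid mean below control in 10. Among the 12 on the lower side, the high mean was below control in 10 and the mid mean above control in 11. Choosing genes by their difference between these groups favours means on opposite sides of control. The matching shares over all tested probes were not counted. Macf1 measured 392.1, 415 and 395 in unirradiated controls, close to the mid arrays, and so did Slc25a45 at 1081, 998 and 1037 and Marcks at 963, 864 and 839. Ckb measured 534, 504 and 448 in controls, between the high and the mid arrays for its mean. Trip12 measured 442, 491 and 457 in controls, so both groups were above control, by 0.59 at the high dose rate (limma adjusted p = 0.109) and by 1.20 at the mid dose rate (limma adjusted p = 0.0381). These comparisons share arrays with each other and are given side by side only.

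Markers of Sertoli and Leydig cells had the largest list medians with higher signal at the high dose rate among lists with at least 4 genes tested. All 4 Leydig cell genes tested, of 5 named on the array, were higher, with a median log2 difference of +0.44, where that over all tested probes was −0.0059. Cyp11a1, which makes pregnenolone from cholesterol as the first step of steroid synthesis, measured 2171, 2756 and 2296 at the high dose rate, against 1936, 1868 and 1332 at the mid dose rate (+0.50 ± 0.17, limma adjusted p = 0.305). Its groups did not overlap, and mid array M130 was far below the other mid arrays. Star, which carries cholesterol to that enzyme, measured 259.9, 196 and 169 at the high dose rate, against 190.5, 142 and 112 at the mid dose rate (+0.50 ± 0.28, limma adjusted p = 0.485). Insl3, the Leydig cell hormone of testicular descent, measured 8912, 5048 and 8604 at the high dose rate, against 6254, 7783 and 3668 at the mid dose rate (+0.37 ± 0.32, limma adjusted p = 0.671). Scarb1, the receptor for cholesterol from high-density lipoprotein, measured 3927, 4047 and 3226 at the high dose rate, against 3349.5, 3588 and 2430.1 at the mid dose rate (+0.27 ± 0.17, limma adjusted p = 0.536). The groups overlapped for Star, Insl3 and Scarb1, and mid array M130 was the lowest array of the 6 for all 4 genes. Without mid array M130 the median of the Leydig list was +0.21. Averaged over members on the log2 scale and set against the mid mean, the list lay at +0.56, +0.35 and +0.34 on the high arrays. The control arrays overlapped them, at +0.47, +0.24 and +0.06.

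Of the 4 Sertoli cell genes tested, 3 were higher (median +0.22). Aard measured 14861, 16690 and 14047 at the high dose rate, against 12424, 10948 and 11032 at the mid dose rate (+0.41 ± 0.11, limma adjusted p = 0.236; 0.0394 with a trended and robust variance). Controls for Aard, at 11600, 11973 and 11432, lay in the range of the mid arrays and below every high array. Dhh, the hedgehog ligand by which Sertoli cells signal to Leydig cells, measured 831, 900.3 and 715 at the high dose rate, against 672, 607 and 613 at the mid dose rate (+0.37 ± 0.12, limma adjusted p = 0.299). Controls for Dhh, at 749, 751 and 639, overlapped both groups. Wt1, a transcription factor of Sertoli cells, measured 1522, 1387 and 1062 at the high dose rate, against 1173, 1296 and 1269.6 at the mid dose rate (+0.07 ± 0.14, limma adjusted p = 0.873). Trf, which encodes transferrin, differed by −0.028, and it was the 1 Sertoli gene tested that was not above the noise limit on all 6 arrays. The summed signal of the Sertoli list lay between 15906 and 19219 at the high dose rate, against 13030 to 14432 at the mid dose rate, of which Aard was the greater part. Averaged over members on the log2 scale and set against the mid mean, the list gave a different order, at +0.41, +0.41 and −0.22 on arrays H132, H134 and H139, against −0.17 to +0.17 on the mid arrays. The list median was +0.46 without array H139 and +0.16 without array H132.

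**Figure D3:**
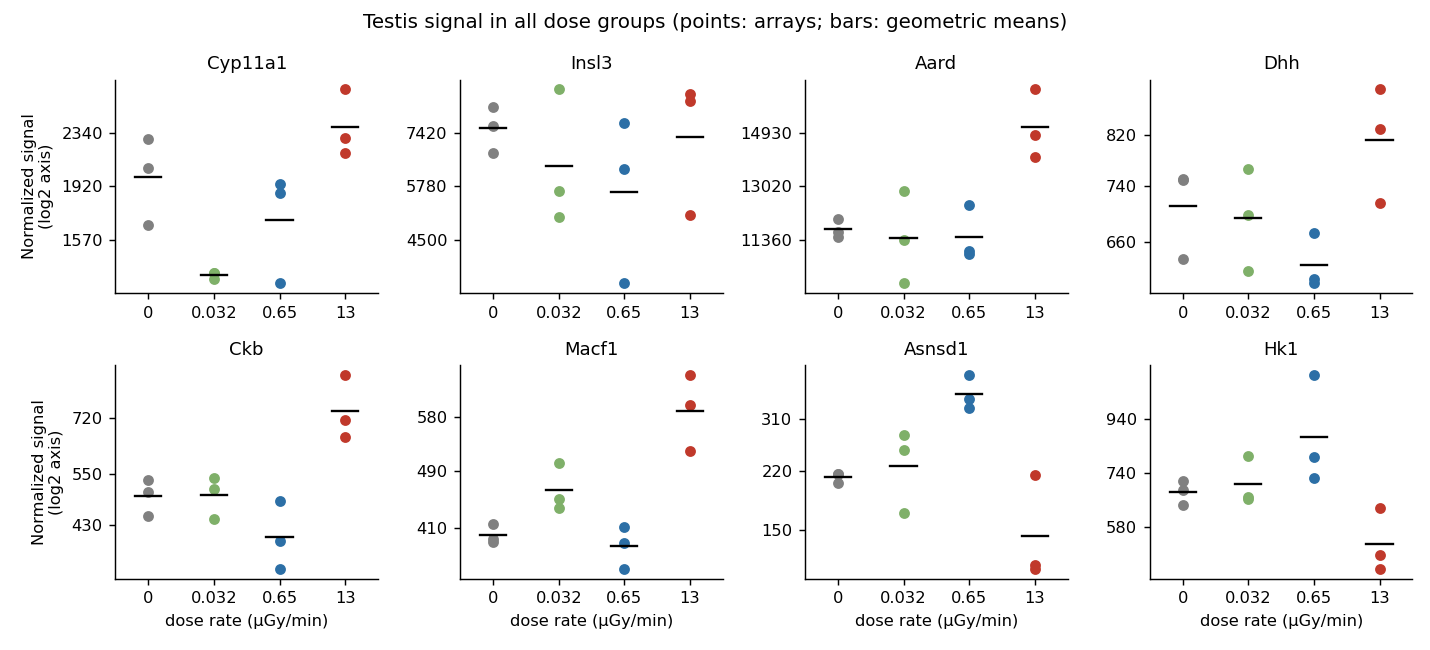
Normalized signal (vertical log2 axes) of 8 genes in all 4 testis groups, in order of dose rate from 0 to 13 μGy/min (horizontal axes), with 3 arrays as points and geometric means as bars. For Aard and Macf1 the high arrays lie above the arrays of every other group, and for Asnsd1 and Hk1 the mid arrays lie above the high arrays.

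Germ cell markers gave differences on both sides of 0. Among the 12 spermatid genes, 8 were lower and 4 higher at the high dose rate, with a median of −0.05 (+0.015 without mid array M130) and a range of −0.24 to +0.10. Catsper2, a subunit of the sperm calcium channel, measured 10505, 9893 and 10047 at the high dose rate, against 11676, 10902 and 11103 at the mid dose rate (−0.15 ± 0.09, limma adjusted p = 0.517). It was the only spermatid gene whose groups did not overlap. Tssk1, a testis-specific kinase of spermatids, measured 5772, 3798 and 4171 at the high dose rate, against 5639, 5359.7 and 4972 at the mid dose rate (−0.24 ± 0.15, limma adjusted p = 0.542). Hook1, needed for the sperm head's microtubule sleeve, measured 1249.7, 1058 and 1350.4 at the high dose rate, against 1168, 1309 and 1448 at the mid dose rate (−0.10 ± 0.11, limma adjusted p = 0.744), and its other probe differed by −0.54. The summed spermatid signal lay between 206911 and 214036 at the high dose rate, against 207547 to 221499 at the mid dose rate, so the ranges overlapped. Very bright probes such as Prm2 make up much of this sum, and quantile normalization limits how far the brightest probes can differ. Prm2, a protamine that packs sperm DNA and the brightest of the list, measured 61363, 59581 and 61363 at the high dose rate, against 61759, 62449 and 60929 at the mid dose rate (−0.02 ± 0.07, limma adjusted p = 0.917). Its difference was +0.24 with arrays scaled to a common median and +0.19 with no normalization between arrays, so Prm2 had no settled direction. Tcp11, the next brightest, differed by −0.04 ± 0.09 (limma adjusted p = 0.887), and by +0.030 with median scaling.

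Spermatogonia were represented by Gfra1, the receptor of their niche factor GDNF, at 154.7, 124 and 178 on the high arrays and 111, 186 and 133.8 on the mid arrays (+0.11 ± 0.22, limma adjusted p = 0.882). The groups overlapped, and the sign turned with array weights (−0.000889). Of the other named spermatogonial genes, Zbtb16 was above the noise limit on 1 high and 1 mid array and Nanos3 on 0. No probe could be named for the 20 spermatocyte genes listed, and none of the peritubular myoid or epididymal genes passed the filter. The stages before spermatids were thus hardly measured by named probes.

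Markers of other cells mostly overlapped between the groups. Igkc, the immunoglobulin κ constant region of plasma cells, measured 174, 64.2 and 312 at the high dose rate, against 827, 1512 and 176 at the mid dose rate (−1.99 ± 1.49, limma adjusted p = 0.617). The mid arrays alone differed several-fold, and Ighm (−0.19 ± 0.53, limma adjusted p = 0.913) overlapped as well. Cd3e and Ptprc, also on the lymphocyte list, were above the noise limit on 0 arrays, and Ptprc is a gene of leukocytes in general. Hba-a1, an α-globin of red blood cells, measured 2206, 2019 and 4035 at the high dose rate, against 2128, 11578 and 1004 at the mid dose rate (−0.15 ± 0.79, limma adjusted p = 0.954). Without mid array M129 the difference was +0.84, and without high array H134 it was +0.033. Hbb-b1 measured 109.7, 133 and 114 at the high dose rate (2 of 3 above the noise limit), against 186, 209.6 and 188 at the mid dose rate (−0.72 ± 0.59, limma adjusted p = 0.652). Its groups did not overlap, with SDs of 0.15 and 0.095 on the log2 scale, and the standard error is wide because all 4 groups enter it, among them low arrays with an SD of 1.55. Among macrophage genes 2 of 4 were higher (median +0.14, and −0.025 without high array H132), with Cd74 at +0.35 ± 0.31 (limma adjusted p = 0.684), the complement genes C1qa at +0.30 ± 0.33 (0.749) and C1qb at −0.09 ± 0.22 (0.902), while Csf1r and Cd68 were above the limit on 0 arrays. The endothelial genes Eng (−1.19 ± 0.67, limma adjusted p = 0.496, and −0.22 without high array H132, which was at the floor) and Pecam1 (−0.10 ± 0.73, limma adjusted p = 0.971) were each above it on only some arrays of both groups.

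Genes of the DNA damage response gave values on both sides of 0. Of 4 p53 targets tested, out of 9 named on the array, 3 were higher (median +0.14, and +0.028 without mid array M129). Cdkn1a, the p53-induced inhibitor of cyclin-dependent kinases, measured 476, 683 and 369 at the high dose rate, against 437, 433 and 315 at the mid dose rate (+0.34 ± 0.24, limma adjusted p = 0.599). The groups overlapped, with high array H134 brightest and high array H139 among the mid arrays. The difference was +0.10 without H134 and +0.55 without H139, and the other Cdkn1a probe differed by +0.42. Tnfrsf10b, a death receptor, differed by +0.14 ± 0.17 (limma adjusted p = 0.789) and Zmat3, an RNA-binding target of p53, by −0.27 ± 0.17 (limma adjusted p = 0.53). Of 6 double-strand break repair genes, 3 were lower and 3 higher (median −0.14). Xrcc4, which holds DNA ligase IV in end joining, measured 891, 803 and 694 at the high dose rate, against 1033, 958 and 918 at the mid dose rate (−0.29 ± 0.14, limma adjusted p = 0.423). Rad18, a ubiquitin ligase of damage tolerance, measured 418, 349 and 323 at the high dose rate, against 424, 430.1 and 559 at the mid dose rate (−0.37 ± 0.17, limma adjusted p = 0.424). Neither overlapped between groups, though for Rad18 the nearest arrays differed by only a few units. Prkdc, the catalytic subunit of the DNA-dependent kinase, differed by −0.31 ± 0.22 (limma adjusted p = 0.598) with overlap. In base excision repair 3 of 5 genes were higher (median +0.06), with the gap-filling polymerase Polb at −0.15 ± 0.09 (limma adjusted p = 0.524), the flap endonuclease Fen1 at −0.13 ± 0.14 (0.76) and the break sensor Parp1 at +0.08 ± 0.11 (0.795).

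Apoptosis and cell cycle genes were mixed as well. Bcl2l2, a death-inhibiting Bcl2 relative that mouse testis needs to keep making sperm, measured 919, 874 and 872 at the high dose rate, against 680, 804 and 641 at the mid dose rate (+0.33 ± 0.10, limma adjusted p = 0.266). Its groups did not overlap. The inhibitor of apoptosis Birc2 measured 226, 169 and 196 at the high dose rate, against 302, 237 and 244 at the mid dose rate (−0.41 ± 0.20, limma adjusted p = 0.448). In all, 4 of 6 apoptosis genes were higher (median +0.04). Birc5, which acts in chromosome segregation, differed by −0.18 ± 0.11 (limma adjusted p = 0.541). Of 10 cell cycle genes 7 were lower (median −0.07), with the phosphatase Cdc25a at −0.28 ± 0.14 (limma adjusted p = 0.433), the germ cell Aurora kinase Aurkc at −0.24 ± 0.12 (0.459) and the replicative helicase subunit Mcm7 at −0.18 ± 0.10 (0.499).

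Among antioxidant and stress proteins, 5 of 9 antioxidant genes were higher (median +0.07), 2 of them at an unadjusted p under 0.05, where 5.66% of all probes were higher at that p. Gstp1, a glutathione transferase, measured 2187, 2233 and 2031 at the high dose rate, against 1532, 1982 and 1265 at the mid dose rate (+0.46 ± 0.17, limma adjusted p = 0.353). Prdx2, a peroxiredoxin, measured 881, 886 and 901 at the high dose rate, against 717, 758 and 660.4 at the mid dose rate (+0.32 ± 0.14, limma adjusted p = 0.4). The high arrays of both were tightly grouped and did not overlap the mid arrays, though for Gstp1 mid array M129 came close to them. Controls for Gstp1, at 2126, 1957 and 2034, overlapped the high arrays. Gstm1, a further glutathione transferase, differed by +0.35 ± 0.20 (limma adjusted p = 0.514) and overlapped. Among 10 chaperone genes 6 were lower (median −0.05). Xbp1, the transcription factor of the unfolded protein response, measured 1603, 1581 and 1429.5 at the high dose rate, against 1227, 1276 and 903 at the mid dose rate (+0.45 ± 0.14, limma adjusted p = 0.285). Hspa4l, a germ cell Hsp110 chaperone, measured 67.3, 158 and 58.6 at the high dose rate (1 of 3 above the noise limit), against 307, 133 and 152 at the mid dose rate (−1.11 ± 0.40, limma adjusted p = 0.344). Xbp1 separated the groups and Hspa4l did not. The small heat shock gene Hspb1 differed by +0.32 ± 0.18 (limma adjusted p = 0.506).

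Energy metabolism showed no common direction. Hk1, the hexokinase that starts glycolysis and has a sperm-specific form, measured 632, 511 and 480.5 at the high dose rate, against 723, 795 and 1147 at the mid dose rate (−0.69 ± 0.17, limma adjusted p = 0.225). The groups did not overlap, mid array M130 was the highest, and controls lay between them at 684, 714 and 640.2. Pfkl, the liver-type phosphofructokinase, measured 2021, 1758 and 2156 at the high dose rate, against 1564, 1760.1 and 1242 at the mid dose rate (+0.39 ± 0.14, limma adjusted p = 0.339). High array H134 and mid array M129 were level for Pfkl. In all, 8 of 13 glycolysis genes were higher (median +0.04), and Gpi1 differed by −0.27 ± 0.13 (limma adjusted p = 0.438). Complex I genes were split 9 to 9 (median +0.03), from Ndufb4 at −0.84 ± 0.45 (limma adjusted p = 0.483; 1 of 3 high arrays above the noise limit) and Ndufa6 at −0.40 ± 0.18 (0.405) to Ndufa4 at +0.24 ± 0.12 (0.437). Of 15 genes of complexes II to IV 9 were higher (median +0.05). Cox6a1, a subunit of cytochrome c oxidase, measured 13518, 12732 and 12352 at the high dose rate, against 11271, 10990 and 10142 at the mid dose rate (+0.25 ± 0.08, limma adjusted p = 0.309). Cox6b1 differed by +0.27 ± 0.10 (limma adjusted p = 0.351) with no overlap, and Uqcrb of complex III by −0.34 ± 0.15 (limma adjusted p = 0.41) with overlap.

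**Figure D4:**
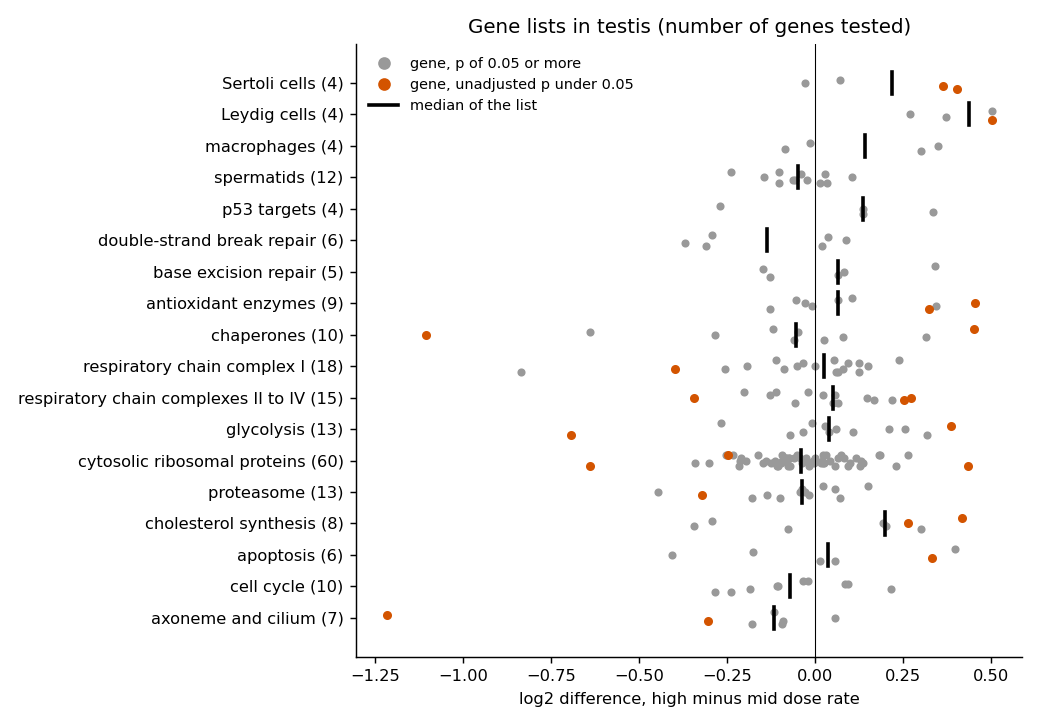
Log2 difference, high minus mid dose rate (horizontal axis), of every tested gene of 18 gene lists (rows, with the number of genes tested). Each point is a gene, orange where the unadjusted p was under 0.05, and black bars are list medians. The Leydig list has its 4 genes between +0.27 and +0.50, while the larger lists straddle 0.

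Lists of protein synthesis and turnover had no settled direction. Of 60 cytosolic ribosomal protein genes 37 were lower (median −0.04, but +0.015 with median scaling and +0.076 without arrays H134 and H139), with Rpl30 at −0.64 ± 0.27 (limma adjusted p = 0.391), Rpl26 at −0.25 ± 0.11 (0.403) and Rpl13a at +0.44 ± 0.19 (0.405). At an unadjusted p under 0.05 there was 1 higher and 2 lower among the 60, where 12.1% of all tested probes had such a p. Of 13 proteasome genes 9 were lower (median −0.04, and +0.054 without arrays H134 and H139). Psma3, a core particle subunit, measured 7818, 6254 and 5531 at the high dose rate, against 8553, 7796 and 7916 at the mid dose rate (−0.32 ± 0.13, limma adjusted p = 0.374). Psmc1, an ATPase of the regulatory particle, measured 866, 424 and 399 at the high dose rate, against 752, 722 and 684 at the mid dose rate (−0.45 ± 0.24, limma adjusted p = 0.483). High array H132 was the highest of all 6 for Psmc1, and without it the difference was −0.81 and was called (adjusted p = 0.0221), whereas H132 alone against the mid arrays gave +0.27. Psmd1 differed by +0.15 ± 0.09 (limma adjusted p = 0.54).

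Cholesterol synthesis, which feeds steroid production, had 5 of 8 genes higher (median +0.20, and +0.018 without high array H132). Fdps, farnesyl diphosphate synthase, measured 5184, 4468 and 5184 at the high dose rate, against 4493, 4163 and 3709 at the mid dose rate (+0.26 ± 0.11, limma adjusted p = 0.376). Hmgcs1, which makes HMG-CoA, measured 7938, 6229 and 7396 at the high dose rate, against 5711, 6534 and 4098 at the mid dose rate (+0.42 ± 0.18, limma adjusted p = 0.4). Cyp51, the lanosterol demethylase, measured 1979.7, 2152 and 2362 at the high dose rate, against 1612, 1783 and 1868 at the mid dose rate (+0.30 ± 0.14, limma adjusted p = 0.429). Mid array M130 was lowest for Fdps and Hmgcs1, as for the Leydig cell genes, and of these 3 genes only Cyp51 separated the groups. Genes of the axoneme were lower in 6 of 7 cases (median −0.12). Dynll1, a dynein light chain, measured 1319.6, 1014 and 1077 at the high dose rate, against 1411, 1346 and 1424 at the mid dose rate (−0.30 ± 0.11, limma adjusted p = 0.35). Spag16, of the central pair of the sperm tail, measured 114, 127 and 26.0 at the high dose rate (2 of 3 above the noise limit), against 141, 123 and 273 at the mid dose rate (−1.22 ± 0.54, limma adjusted p = 0.403, and −0.49 without H139). Dynll1 separated the groups and Spag16 did not, and the tubulin gene Tuba3a differed by −0.18 ± 0.10 (limma adjusted p = 0.508). Igtp, an interferon-induced GTPase, differed by +0.09 ± 0.45 (limma adjusted p = 0.952).

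The same contrast, high against mid dose rate, was also measured in kidney. Over 9664 probes above the noise limits of both tissues, limma called 2 (0.0207%) for a difference between tissues, and neither had a gene symbol. Of the 24 genes of lowest p, 11 on the higher side and 4 on the lower side could be tested, with a smallest adjusted p of 0.0711. Flrt1 differed by +0.74 in testis and −0.69 in kidney, and Pdlim1 by +0.67 in testis and −0.21 in kidney, both with limma adjusted p = 0.0711 for the difference. Macf1 was at +0.014 and Ckb at +0.072 in kidney, where the difference between tissues had limma adjusted p = 0.138 and 0.165. None of these passed, so no gene named here is shown to differ between the tissues.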

How the data were processed

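The 12 testis arrays were used, and the 12 kidney arrays for 1 comparison. The testis values the authors deposited in the series' value table are linear intensity values, some of them negative, and how they were normalized was not given in the sources used here. Its kidney intensities did not differ from the table made in BeadStudio 1.5.0.34, per the file headers, of which 47 other per-sample columns were not used. In R 4.3.3 with limma 3.58.1, signals were quantile normalized within a tissue, set to a floor of 16 and put on a log2 scale. All 12 testis arrays entered 1 fit with 4 groups (8 residual degrees of freedom) and a two-sided moderated test. Tissues were compared by an interaction over 24 arrays.

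Probes were named by a zero-padded number in the target identifier, read as an NCBI gene ID (GRCm38.p6): 9832 of 11897 (82.6%) matched, against 11.3% of 16535 unpadded numbers. In 340 pairs of probes of 1 symbol, testis minus kidney differences had r = 0.761.

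The text names the 12 genes of lowest p in each direction, 3 genes per list, the 2 brightest cell markers, the 5 probes of lowest p and the 5 largest differences. The brightest probe stood for a gene on a list. Members and lists were chosen with earlier results of these data known. On simulated data for this comparison over 13808 probes, 94% of probes changed by 1 on the log2 scale were called. The changes were put into brighter probes only, with independent noise and no shift of whole arrays. The share that would be called among dim probes, or with arrays that differ as these do, was not measured. The alternatives covered scaling, background, floor, filter, variance model and arrays left out.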

Additional observations from a re-analysis of the deposited data

Results flagged for a closer look

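Probe 100840369 was picked out because its difference between high and mid dose rate was not the same in testis and kidney. It was +0.22 in testis and −1.05 in kidney, a difference of 1.27 between the tissues (limma interaction, adjusted p = 0.0313, n = 3 arrays per group). Probe 105860154 was picked out in the same way, with +0.10 in testis, −1.52 in kidney and a difference of 1.62 (limma interaction, adjusted p = 0.0313). Neither probe has a gene symbol here. In both, the kidney difference was the larger.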

How the results depend on the processing

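No probe passed, and 9 of 20 alternatives also called 0. The count was 1 with only the 6 arrays fitted, 1 with no normalization between arrays, 2 with normexp and 7 with a floor of 64. It was 28 with an array-median filter (1 of them among the probes tested here) and 36 with no filter (6 of them among the probes tested here). It was 32 with trend and robust, and 539 when the rule was an unadjusted p under 0.05 plus a fold of at least 1.5. Leaving out 1 array gave 0 to 54 calls, 54 without high array H132 and 1 without high array H134. Without high arrays H134 and H139, chosen after seeing the data because they lay apart, it was 4, with the lone high array assumed to vary like the others. The count of tissue differences was 2 with both tissues normalized together, 4 with a floor of 64, 6 with trend and robust and 10 without the kidney filter. Of 1839 values of named genes under alternatives, 1779 kept direction and side of the threshold, 30 were called and 30 had the opposite sign. With median scaling the opposite signs were Prm2 +0.24 and Tcp11 +0.030, with no normalization Prm2 +0.19 and with array weights Gfra1 −0.000889. Without both high arrays H134 and H139 they were C1qb +0.35, Pecam1 +0.36, Tssk1 +0.12, Tnfrsf10b −0.056, Ndufb4 +0.17, Gpi1 +0.032, Psmc1 +0.27 and Tcp11 +0.033. With 1 array left out, values straddled 0 for Wt1 (−0.037 to +0.22), C1qa (−0.044 to +0.60), C1qb (−0.30 to +0.044), Ighm (−0.50 to +0.063), Pecam1 (−0.32 to +0.33), Hba-a1 (−0.92 to +0.84), Gfra1 (−0.066 to +0.31), Fen1 (−0.27 to +0.0040), Parp1 (−0.0070 to +0.19), Igtp (−0.31 to +0.59) and Tcp11 (−0.084 to +0.018). With 1 array left out, the smallest differences were far below those printed for Insl3 (+0.062), Gstm1 (+0.075), Cd74 (+0.10) and Prkdc (−0.13). List medians also turned sign, for base excision repair (−0.11 without M125) and, without H132, for complex I (−0.012), complexes II to IV (−0.054) and apoptosis (−0.027), and for chaperones without H134 and H139 (+0.17). The cause was not tested. No paired analysis was possible because the testis groups share no replicate numbers. The p-values measure only the spread between these arrays, labelled as separate mice. Kidney and testis arrays were treated as independent. Dim probes are limited by the noise limit. Most tested probes have no symbol, and 292 pairs of probes of 1 symbol had r = 0.085 between their differences, with 63.0% of the same sign.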
